A study of Homo sapiens with 2 samples.

Results

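The genes described here encode the desmosome and were measured in H9, an established human embryonic stem cell line. They are the plaque linker DSP, the desmosomal cadherins DSG2, DSC2 and DSC3, the armadillo proteins JUP, PKP2 and PKP3, and the related armadillo protein PKP4. They were chosen by gene name, and all 8 were found among the 20263 genes of the deposited table, with 39 of its 95139 transcripts. The cells were H9 in both conditions. In the condition called siHNRNPA1, HNRNPA1, which encodes a splicing regulator, had been targeted by small interfering RNA for 48 h. In the condition called sicontrol, a control small interfering RNA had been given for 48 h. Each condition had 1 library that could be matched to its labels, so no difference below has a replicate check, no p-value is given, and intervals cover counting error only.

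Desmosomes are spot-like junctions that tie the intermediate filaments of neighbouring cells together. Desmogleins and desmocollins, which are cadherins, bind each other across the gap between cells. Inside the cell their tails hold plakoglobin (JUP) and the plakophilins, and these bind desmoplakin (DSP), which holds the filaments. Simple epithelia and pluripotent cells make the DSG2 and DSC2 pair, while other desmogleins and desmocollins belong mainly to stratified epithelia such as epidermis.

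Several of these genes are made in alternative forms, and the sequences that tell the forms apart are shown first because the transcript results below turn on them. They were read from the GENCODE release 29 transcripts on GRCh38. Desmoplakin has a long form, DSP-201, with 2871 codons, and a short form, DSP-202, with 2272 codons. The short form leaves exon 23 at an earlier splice site, so that 1797 coding bases of the coiled-coil rod (chr6:7579773-7581569, plus strand) are missing. The junctions below show the last 30 bases before the join in lower case and the first 30 bases of the shared last exon in capitals. On the plus strand of chromosome 6, base 7581569 is joined to base 7582642 in DSP-201 and base 7579772 to base 7582642 in DSP-202.
DSP-201: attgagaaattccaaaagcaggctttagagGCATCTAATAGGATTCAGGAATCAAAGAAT
DSP-202: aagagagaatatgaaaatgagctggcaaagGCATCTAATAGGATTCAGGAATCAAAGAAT
The main PKP4 form of the control library, PKP4-202, has 1192 codons and holds a coding exon of 129 bases (chr2:158676739-158676867, plus strand) that PKP4-201, with 1149 codons, lacks. The exon is in capitals, with 15 bases of each neighbouring exon in lower case.
PKP4-202: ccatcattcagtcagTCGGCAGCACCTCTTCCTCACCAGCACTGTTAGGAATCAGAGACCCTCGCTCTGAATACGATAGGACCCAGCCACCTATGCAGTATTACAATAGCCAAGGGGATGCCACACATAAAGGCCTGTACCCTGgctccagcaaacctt
Both desmocollins have a short-tailed form made by a small extra exon with an early stop codon. The coding part of that exon is given for DSC2-201 (chr18:31068309-31068344, minus strand) and DSC3-202 (chr18:30994470-30994496, minus strand), with the stop codon in capitals.
DSC2-201: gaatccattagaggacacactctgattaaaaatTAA
DSC3-202: gaatccattagaggacacactggtTAA
The first 21 coding bases of these exons were identical in the 2 genes.

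The siHNRNPA1 library totalled 28147828 estimated counts and the sicontrol library 26680342. HNRNPA1 itself stood at 27.1% of its control FPKM (fragments scaled to transcript length and library size) in siHNRNPA1 cells. All 11 pluripotency markers checked were detected in both libraries, and they summed to 2444 FPKM in siHNRNPA1 cells and 2477 FPKM in sicontrol cells, with POU5F1 alone at 1355 FPKM in siHNRNPA1 cells and 864 FPKM in sicontrol cells. Of the 11, 4 were at least 2-fold lower (LIN28B, PODXL, DPPA4 and SOX2) and none was at least 2-fold higher. Among all genes past the minimum given below, 21.9% were lower and 12.4% higher. After subtraction of the nearest genes, described below, 3 of the 11 were at least 2-fold lower, and LIN28B (-0.37) was not. The 7 markers of simple epithelium summed to 1696 FPKM in siHNRNPA1 cells and 715 FPKM in sicontrol cells. Among them CDH1 was lower (log2 fold -1.50), and KRT18 (1.60) and the claudin gene CLDN6 (3.16) were higher. CLDN6 had 336.9 FPKM in siHNRNPA1 cells and 36.7 FPKM in sicontrol cells. After subtraction of the nearest genes CLDN6 stood at 2.51, while CDH1 (-0.84) and KRT18 (0.95) were within 2-fold. The part of these marker differences in the desmosome folds was not tested. Of 7 markers of stratified epithelium, 5 were listed at 0 in each library, and the list summed to 0.110 FPKM in siHNRNPA1 cells and 0.228 FPKM in sicontrol cells. The cardiac myosin genes MYH6 and MYH7 were listed at 0 in both libraries, and the 6 cardiac markers summed to 10.9 FPKM in each. The others were detected in both. TNNT2 had 6.36 FPKM in siHNRNPA1 cells and 6.77 FPKM in sicontrol cells, and NKX2-5 had 3.81 FPKM and 2.30 FPKM. ACTN2 and RYR2 had a mean below 1 FPKM. The 7 fibroblast markers summed to 217.5 FPKM in siHNRNPA1 cells and 263.9 FPKM in sicontrol cells, mostly from THY1, with COL3A1, DCN and LUM at 0 in both. The 6 trophoblast and amnion markers summed to 5.76 FPKM in siHNRNPA1 cells and 7.82 FPKM in sicontrol cells, with TFAP2A and CGA at 0 in both. GABRP stood at a log2 fold of -1.50. KRT7 went the other way (0.94), with 4.10 FPKM in siHNRNPA1 cells and 1.66 FPKM in sicontrol cells. Transcripts of mitochondrial genes took 18.1% of TPM in siHNRNPA1 cells and 28.2% in sicontrol cells, and the part of this in the folds was not tested. In RNA from bulk cells, fewer cells that make a transcript and less of it per cell cannot be told apart.

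Most desmosome genes were lower in siHNRNPA1 cells, but plakoglobin and plakophilin 3 were not. Transcript values were added up per gene, and the fold of a gene was log2((siHNRNPA1 + 1)/(sicontrol + 1)), which understates the fold of a weakly expressed gene. Of the 8 genes, 7 passed a minimum mean of 1 FPKM, and DSC3 did not. Of the 7, 5 were at least 2-fold lower (DSP, DSG2, DSC2, PKP2 and PKP4) and none was at least 2-fold higher. Among all 11921 genes that passed the minimum, 21.9% were lower by this measure and 12.4% higher. The median log2 fold was -1.81 over the 7 genes and -0.13 over all genes that passed. On estimated counts scaled to the library total, with no minimum and no pseudocount, the 95% exact interval of the siHNRNPA1 level lay below 50% of the control level for 6 of the 8 genes. These were DSP, DSG2, DSC2, DSC3, PKP2 and PKP4. The same held for 20.4% of the 16834 genes with any count.

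**Figure D1:**
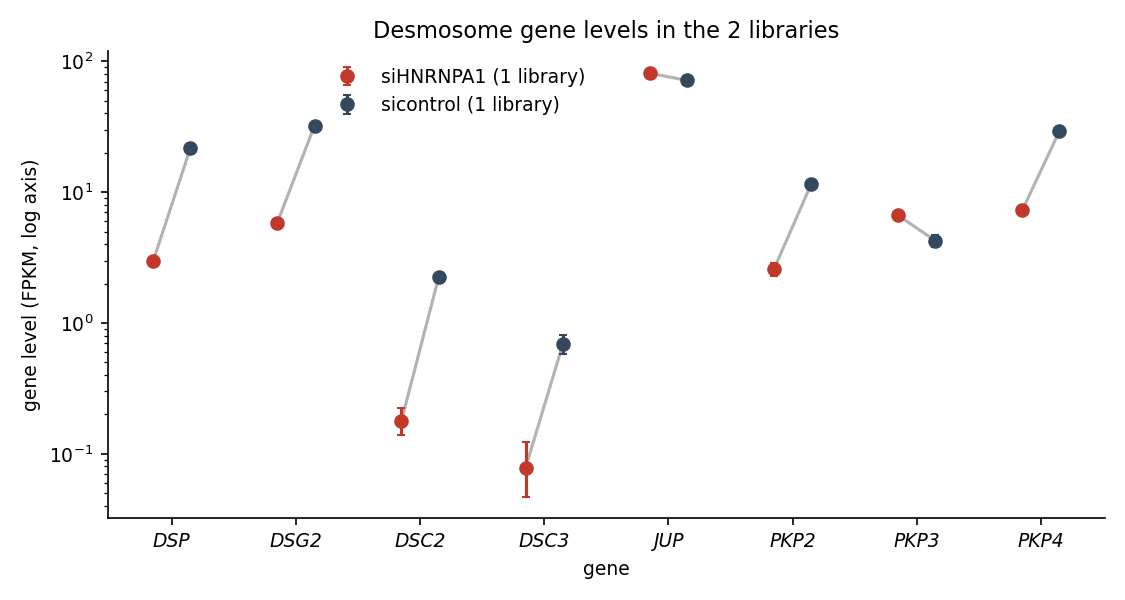
FPKM of each desmosome gene on a log axis, with the siHNRNPA1 library on the left of each pair and the sicontrol library on the right; bars are 95% exact Poisson intervals of the estimated counts, scaled to FPKM, and cover counting error only. DSP, DSG2, DSC2, DSC3, PKP2 and PKP4 are lower in siHNRNPA1 cells, while JUP (81.2 against 71.4 FPKM) and PKP3 (6.64 against 4.25 FPKM) are not lower in FPKM.

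DSP encodes desmoplakin, the protein that anchors intermediate filaments to the plaque (ENSG00000096696, chromosome 6, 7541575 to 7586717, plus strand, GRCh38). It had 2.96 FPKM in siHNRNPA1 cells and 21.7 FPKM in sicontrol cells. Its log2 fold of -2.52 was the lowest of the 8 genes, and 0.814% of the genes that passed the minimum had a lower one. That rank depends on the pseudocount. As a percentage of control FPKM, the weakly expressed DSC2 (7.99%) and DSC3 (11.4%) were below DSP (13.7%). The underlying estimated counts were 903 in siHNRNPA1 cells and 5949 in sicontrol cells. By scaled counts the siHNRNPA1 level was 14.4% of the control level (95% exact interval 13.4% to 15.4%).

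Both desmoplakin forms were lower, and the short one more so. DSP-201, which carries the whole rod, had 2.02 FPKM in siHNRNPA1 cells and 11.2 FPKM in sicontrol cells. DSP-202, the form with the shortened rod, had 0.944 FPKM in siHNRNPA1 cells and 10.5 FPKM in sicontrol cells. The forms were thus in unequal proportion in siHNRNPA1 cells, with DSP-201 at 68.1% of the gene's FPKM, against 51.5% in sicontrol cells. By estimated counts the DSP-201 share was 72.8% in siHNRNPA1 cells (95% exact interval 69.7% to 75.6%) and 57.1% in sicontrol cells (55.8% to 58.4%). The difference of 16.6 percentage points in FPKM share was below the 20 points used as a threshold for share differences.

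DSG2 encodes desmoglein 2, the desmoglein of simple epithelia and heart (ENSG00000046604, chromosome 18, 31498043 to 31549008, plus strand). It had 5.83 FPKM in siHNRNPA1 cells and 32.3 FPKM in sicontrol cells, a log2 fold of -2.28. Its estimated counts were 1039 in siHNRNPA1 cells and 5817 in sicontrol cells, or 16.9% of the control level by scaled counts (95% exact interval 15.8% to 18.1%). The difference lay in DSG2-201, the form that encodes the whole protein, with 5.25 FPKM in siHNRNPA1 cells and 32.1 FPKM in sicontrol cells. The short form DSG2-202 had 21 estimated counts in siHNRNPA1 cells and 6 in sicontrol cells. Its share of the gene's FPKM was 10.04% in siHNRNPA1 cells and 0.50% in sicontrol cells, while its share of the counts was 2.02% in siHNRNPA1 cells and 0.103% in sicontrol cells. An annotated antisense gene, DSG2-AS1, overlaps DSG2, and the sources used here do not say whether counting used the strand.

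DSC2 encodes desmocollin 2, the partner cadherin of DSG2 (ENSG00000134755, chromosome 18, 31058840 to 31102415, minus strand). It was weakly expressed, with 0.179 FPKM in siHNRNPA1 cells and 2.24 FPKM in sicontrol cells. Its log2 fold of -1.46 was compressed by the pseudocount. The counts were 74 in siHNRNPA1 cells and 654 in sicontrol cells, which is 10.7% of the control level by scaled counts (95% exact interval 8.32% to 13.7%). The long-tailed DSC2-202 had 0.179 FPKM in siHNRNPA1 cells and 1.36 FPKM in sicontrol cells. The short-tailed DSC2-201, which holds the exon shown above, was listed at 0 in siHNRNPA1 cells and had 0.877 FPKM (132 estimated counts) in sicontrol cells. With no count among 74, a share of DSC2-201 of up to 4.86% of the gene's counts is allowed (95% exact), against 20.2% in sicontrol cells. That bound holds only if each count was assigned to the right form, which was not tested. The forms also differ outside that exon, with 4826 bases annotated for DSC2-201 and 12325 for DSC2-202. Annotated antisense genes also overlap DSC2 (DSCAS) and PKP4 (PKP4-AS1).

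DSC3 encodes desmocollin 3, best known from the basal layers of stratified epithelium (ENSG00000134762, chromosome 18, 30990008 to 31042815, minus strand). It had 0.0781 FPKM in siHNRNPA1 cells and 0.688 FPKM in sicontrol cells. The counts behind these values were 19 in siHNRNPA1 cells and 150 in sicontrol cells, or 12.0% of the control level by scaled counts (95% exact interval 7.03% to 19.4%). All 19 counts of the siHNRNPA1 library were listed for the long-tailed DSC3-201 and all 150 of the sicontrol library for the short-tailed DSC3-202. These forms are nearly of the same length (6939 and 6978 bases), and with so few counts the forms were not compared further.

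The 3 cadherin genes lie side by side with the other desmosomal cadherins on chromosome 18. Between DSC2 and DSG2 stand DSC1, DSG1, DSG4 and DSG3, the cadherins of stratified epithelium. DSC1 and DSG4 were listed at 0 in both libraries. DSG1 had no count in siHNRNPA1 cells and 12 in sicontrol cells, and DSG3 had 2 counts in siHNRNPA1 cells and none in sicontrol cells. DSG2, at one end of the cluster, thus held most of the desmosomal cadherin message in both libraries. It was 32.6 times the level of DSC2 per length in siHNRNPA1 cells and 14.4 times in sicontrol cells.

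JUP encodes plakoglobin, an armadillo protein close to beta-catenin that binds desmosomal and classical cadherins (ENSG00000173801, chromosome 17, 41754604 to 41786931, minus strand). It was the most abundant of the 8 genes in both libraries, with 81.2 FPKM in siHNRNPA1 cells and 71.4 FPKM in sicontrol cells. Its log2 fold of 0.18 is well within 2-fold. By scaled counts it stood at 117% of the control level (95% exact interval 113% to 120%), from 8817 estimated counts in siHNRNPA1 cells and 7163 in sicontrol cells. Plakoglobin made up 76.1% of the summed FPKM of the 8 genes in siHNRNPA1 cells and 41.2% in sicontrol cells. Without JUP the sum was 25.5 FPKM in siHNRNPA1 cells and 102 FPKM in sicontrol cells. The level of JUP per length was 27.4 times that of DSP in siHNRNPA1 cells and 3.29 times in sicontrol cells.

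All 3 main JUP transcripts encode the same protein of 745 residues and differ outside the coding sequence. JUP-203, which keeps an intron of 297 bases near its end (chr17:41755433-41755729), had 40.0 FPKM in siHNRNPA1 cells and 41.8 FPKM in sicontrol cells. JUP-201 and JUP-202, in which that intron is removed, together had 37.9 FPKM in siHNRNPA1 cells and 25.03 FPKM in sicontrol cells. JUP-203 thus held 49.3% of the gene's FPKM in siHNRNPA1 cells and 58.6% in sicontrol cells. By counts the share was 52.7% in siHNRNPA1 cells (95% exact interval 51.7% to 53.8%) and 63.3% in sicontrol cells (62.2% to 64.5%). The 7 shorter JUP transcripts together had 3.25 FPKM in siHNRNPA1 cells and 4.56 FPKM in sicontrol cells.

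Plakophilins link desmoplakin to the cadherin tails. In FPKM, PKP2 and the related PKP4 were lower in siHNRNPA1 cells and PKP3 was higher. PKP3 stood at -0.10, however, once the genes nearest to it in expression and composition were subtracted. PKP2, the plakophilin of simple epithelia and heart (ENSG00000057294, chromosome 12, 32790745 to 32896840, minus strand), had 2.57 FPKM in siHNRNPA1 cells and 11.49 FPKM in sicontrol cells. Its log2 fold was -1.81, and its counts (301 in siHNRNPA1 cells and 1460 in sicontrol cells) gave 19.5% of the control level by scaled counts (95% exact interval 17.2% to 22.1%). PKP2-202, with 837 codons, held most of the difference, with 1.83 FPKM in siHNRNPA1 cells and 10.6 FPKM in sicontrol cells. PKP2-201, the longer form with 881 codons, had no count in siHNRNPA1 cells and 1 in sicontrol cells. The fragment PKP2-204, which covers the start of the gene only, had 39 counts in siHNRNPA1 cells and 43 in sicontrol cells.

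PKP3, a plakophilin of most epithelia (ENSG00000184363, chromosome 11, 392614 to 404908, plus strand), had 6.64 FPKM in siHNRNPA1 cells and 4.25 FPKM in sicontrol cells. Its log2 fold of 0.54 was the highest of the 8 genes and within 2-fold. The counts were 560 in siHNRNPA1 cells and 372 in sicontrol cells, or 143% of the control level by scaled counts (95% exact interval 125% to 163%). PKP3-201, with 797 codons, had 5.82 FPKM in siHNRNPA1 cells and 4.25 FPKM in sicontrol cells. PKP3 thus stood at 2.59 times the FPKM of PKP2 in siHNRNPA1 cells and at 0.370 times in sicontrol cells.

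PKP4, also called p0071, is an armadillo protein of the p120 catenin branch that is found at both desmosomes and adherens junctions (ENSG00000144283, chromosome 2, 158456964 to 158682879, plus strand). It had 7.25 FPKM in siHNRNPA1 cells and 29.3 FPKM in sicontrol cells, a log2 fold of -1.88. The estimated counts were 1196 in siHNRNPA1 cells and 3926 in sicontrol cells, or 28.9% of the control level by scaled counts (95% exact interval 27.0% to 30.8%). Much of that difference lay in a single transcript. PKP4-202, the form with the 129-base exon shown above, was listed at 0 in siHNRNPA1 cells and had 15.03 FPKM (2069 estimated counts) in sicontrol cells. PKP4-201, the form without that exon, had 5.37 FPKM in siHNRNPA1 cells and 7.28 FPKM in sicontrol cells, a log2 fold of -0.38. These forms also differ outside that exon, with 4443 bases annotated for PKP4-202 and 5777 for PKP4-201. The part of that in their values was not tested.

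The share of PKP4-202 in the gene's FPKM was 0% in siHNRNPA1 cells and 51.3% in sicontrol cells. With no count among 1196, a count share of up to 0.308% is allowed (95% exact), against 52.7% in sicontrol cells (51.1% to 54.3%). These bounds take each count as assigned to the right form, which was not tested, so the true share could lie outside them. Of the 10 PKP4 transcripts, 3 hold the exon (PKP4-202, PKP4-205 and PKP4-217). Together they had 0.487 FPKM in siHNRNPA1 cells and 17.2 FPKM in sicontrol cells. In the siHNRNPA1 library that signal came from PKP4-205 alone, a transcript annotated as a target of nonsense-mediated decay. Without PKP4-202 the gene's log2 fold was -0.89, within 2-fold. The 6 transcripts annotated as such targets together had 1.88 FPKM in siHNRNPA1 cells and 6.46 FPKM in sicontrol cells. The most abundant of them, PKP4-206, had 1.16 FPKM in siHNRNPA1 cells and 2.37 FPKM in sicontrol cells. Its share of the gene's FPKM was 16.0% in siHNRNPA1 cells and 8.08% in sicontrol cells.

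How reads were divided between overlapping forms is not recorded in the table, and its part in a transcript listed at 0 was not tested. Across the table, 3.27% of the 5597 transcripts with at least 10 FPKM in sicontrol cells were listed at 0 in siHNRNPA1 cells. In the other direction, 1.84% of the 5933 transcripts with at least 10 FPKM in siHNRNPA1 cells were listed at 0 in sicontrol cells. A share difference of at least 20 percentage points was found in 40.6% of the 5715 genes that had several transcripts and reached 5 FPKM in each library. Of the desmosome genes, DSG2, JUP and PKP4 met that minimum, and PKP4 alone of the 3 had such a difference. DSC2, DSC3 and PKP2 also had share differences past 20 points, but at lower levels than the minimum. The PKP2 difference of 21.1 points lay between the full form and the fragment PKP2-204, and it was 10.01 points in counts.

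**Figure D2:**
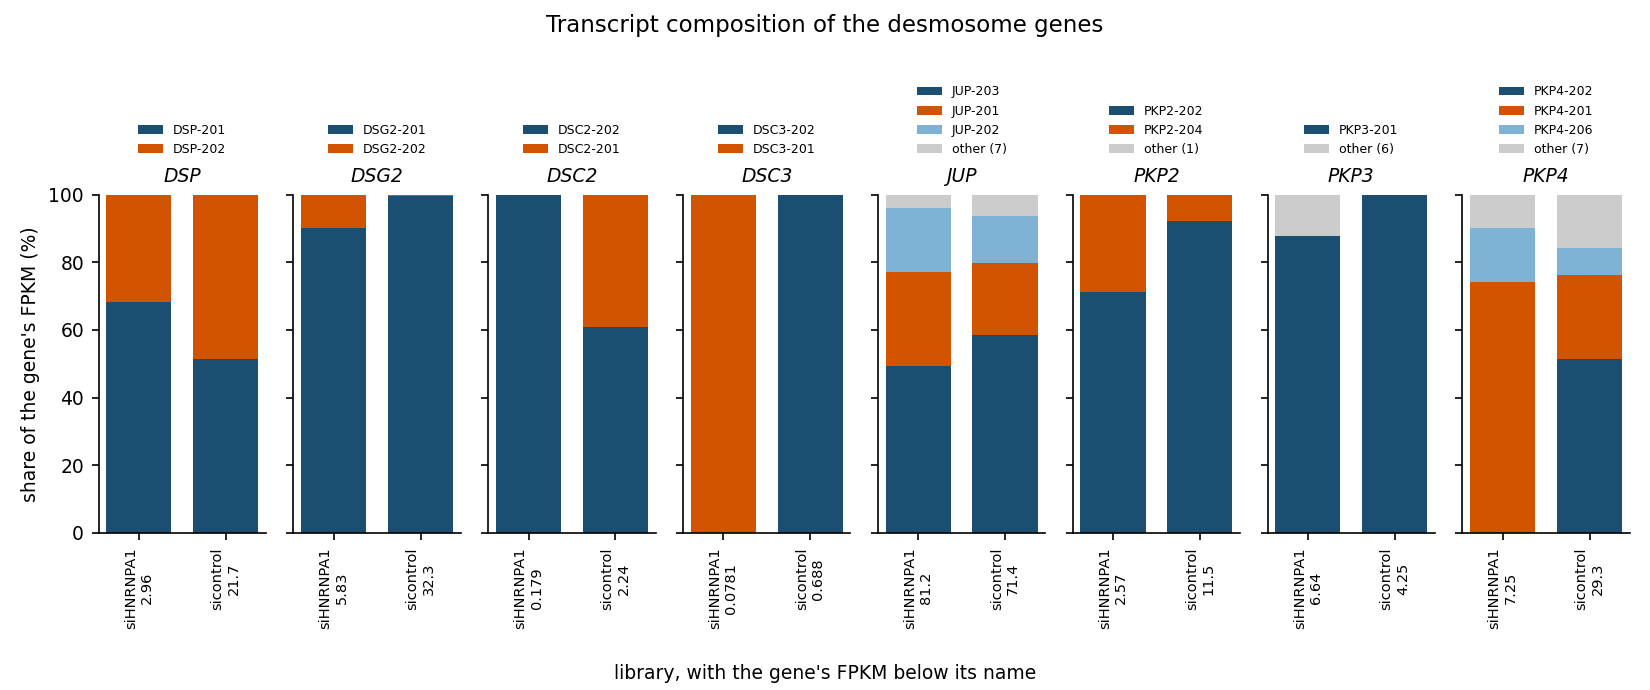
Share of each gene's FPKM held by its transcripts, with the siHNRNPA1 library on the left and the sicontrol library on the right of each panel and the gene's FPKM under each bar; grey joins the transcripts below 10% in both libraries. PKP4-202 has 51.3% of its gene in sicontrol cells and is listed at 0 in siHNRNPA1 cells, and DSP-201 has 68.1% in siHNRNPA1 cells and 51.5% in sicontrol cells.

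Of the 39 transcripts, 13 had a mean of at least 1 FPKM. Of these, 5 were at least 2-fold lower (DSP-201, DSP-202, DSG2-201, PKP2-202 and PKP4-202) and none was at least 2-fold higher. Among all 24624 transcripts with that mean, 23.4% were lower by this measure and 21.3% higher. Listed at 0 were 15 of the 39 in siHNRNPA1 cells and 7 in sicontrol cells, with 6 at 0 in both. Of all transcripts in the table, 45.7% were listed at 0 in siHNRNPA1 cells and 40.7% in sicontrol cells.

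The order of the genes by FPKM differed between the libraries. In the siHNRNPA1 library it ran JUP, PKP4, PKP3, DSG2, DSP, PKP2, DSC2, DSC3, and in sicontrol cells JUP, DSG2, PKP4, DSP, PKP2, PKP3, DSC2, DSC3. Counting intervals were scaled to FPKM for this comparison. In the siHNRNPA1 library those of PKP4 (6.84 to 7.67) and PKP3 (6.10 to 7.22) overlapped, as did those of PKP3 and DSG2 (5.48 to 6.20). Those of DSP (2.77 to 3.16) and PKP2 (2.29 to 2.88) overlapped as well. No neighbours overlapped in sicontrol cells. With only counting error known, the order says nothing about the spread between cultures.

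In the table as a whole, the folds moved with base composition and transcript length. The most abundant transcripts of DSP, DSG2, DSC2, PKP2 and PKP4 had GC contents from 38.9% to 48.3%, while those of JUP and PKP3 had 61.5% and 66.7%. All genes past the minimum were split by GC content into 5 groups of equal size. From the lowest GC content to the highest, 48.7%, 33.9%, 17.8%, 6.92% and 2.01% of a group were at least 2-fold lower. DSC2 was in the first group, DSG2 and PKP2 in the next, DSP and PKP4 in the middle one and JUP and PKP3 in the last. Split by length in the same way, 6.57%, 10.5%, 20%, 28.6% and 43.8% were at least 2-fold lower from the shortest group to the longest. DSP, DSG2 and DSC2 were among the longest, and JUP, PKP2 and PKP4 in the group before. Across the 8 genes, which share both libraries and are not replicates, Spearman's rho of the fold was 0.31 with GC content and -0.55 with length. Across all genes that passed the minimum it was 0.58 with GC content and -0.46 with length. The part of composition and length in the folds of the desmosome genes was not tested.

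Each gene was also set against the 100 genes nearest to it in mean expression, GC content and length, and the median fold of those 100 was taken off. DSP stood at -1.72 after the subtraction, PKP4 at -1.14, DSG2 at -1.11 and PKP2 at -1.03, so that 4 of the 7 genes were still at least 2-fold below their neighbours. By that measure 8.41% of all genes were 2-fold or more lower and 8.06% 2-fold or more higher. DSC2 stood at -0.38, within 2-fold. The signs of JUP (-0.34) and PKP3 (-0.10) turned, since their neighbours had median folds of 0.52 and 0.64. The median over the 7 genes was -1.03.

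**Figure D3:**
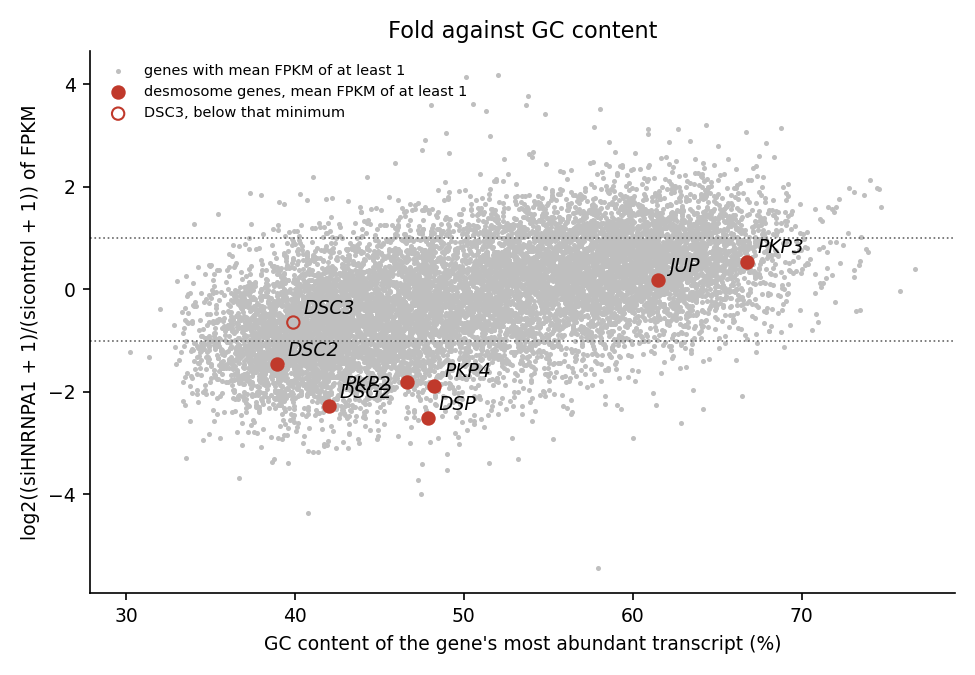
Log2 fold of FPKM against the GC content (%) of the most abundant transcript, for genes with a mean of at least 1 FPKM (grey), the desmosome genes (red) and DSC3 (open circle), with dotted lines at 2-fold. JUP and PKP3 lie at 61.5% and 66.7% GC with folds of 0.18 and 0.54, and DSP lies at 47.9% GC with -2.52.

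**Figure D4:**
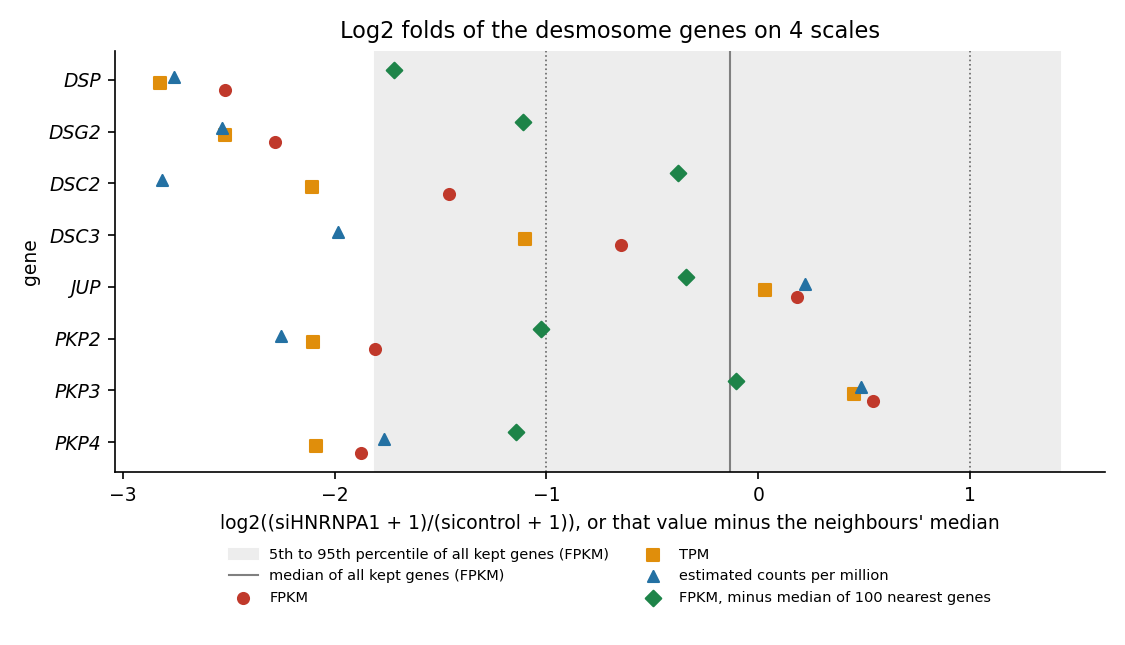
Log2 folds of each gene from FPKM, TPM and estimated counts scaled to the library total (each with 1 unit added) and from FPKM less the median fold of the 100 nearest genes; the band spans the 5th to 95th percentile of all genes with a mean of at least 1 FPKM. DSP, DSG2, PKP2 and PKP4 are past the dotted 2-fold line at -1 on all 4 scales, DSC2 on 3, and JUP and PKP3 on none.

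Other genes around the desmosome were read from lists of related genes. Of 9 further desmosome and cornified envelope genes, PERP and PPL alone passed the minimum, and neither was past 2-fold. PERP, a tetraspan protein of desmosomes, had 6.13 FPKM in siHNRNPA1 cells and 7.37 FPKM in sicontrol cells. PPL, periplakin, had 7.61 FPKM in siHNRNPA1 cells and 12.2 FPKM in sicontrol cells (log2 fold -0.62). PKP1, the plakophilin of suprabasal epidermis, had 0.0989 FPKM in siHNRNPA1 cells and 0.155 FPKM in sicontrol cells.

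The keratins that desmoplakin holds in simple epithelia stood on the other side of 0. KRT8 had 538 FPKM in siHNRNPA1 cells and 271 FPKM in sicontrol cells (log2 fold 0.98), and its partner KRT18 had 582 FPKM in siHNRNPA1 cells and 191 FPKM in sicontrol cells (1.60). KRT19 had 95.6 FPKM in siHNRNPA1 cells and 49.6 FPKM in sicontrol cells (0.93). Of the 8 filament and linker genes that passed the minimum, KRT18 was at least 2-fold higher and VIM (-1.12) and DST (-2.37) at least 2-fold lower. Among all genes that passed it, 12.4% were higher and 21.9% lower. DST encodes dystonin, a plakin of the desmoplakin family, and had 6.59 FPKM in siHNRNPA1 cells and 38.2 FPKM in sicontrol cells. The plakin PLEC, plectin, stood at -0.12. These 3 keratins have GC contents from 60.2% to 61.8%, and after subtraction of their nearest genes KRT18 stood at 0.95, KRT8 at 0.35 and KRT19 at 0.0042.

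Of 9 adherens junction genes and armadillo relatives, 6 were lower by 2-fold or more and 0 higher, with a median log2 fold of -1.11. Among all genes that passed the minimum, 21.9% were lower and 12.4% higher. CTNND1, which encodes p120 catenin, was the lowest at -1.92, with 5.76 FPKM in siHNRNPA1 cells and 24.6 FPKM in sicontrol cells. CTNNB1, the beta-catenin gene and closest relative of JUP, had 39.2 FPKM in siHNRNPA1 cells and 85.7 FPKM in sicontrol cells (-1.11). JUP thus exceeded CTNNB1 per length in siHNRNPA1 cells and was below it in sicontrol cells. ARVCF, another p120 relative, had 28.1 FPKM in siHNRNPA1 cells and 16.9 FPKM in sicontrol cells (0.70). After subtraction of the nearest genes, 2 of the 9 (CTNND1 and CDH3) were at least 2-fold lower, against 8.41% of all genes. On scaled counts, with no pseudocount and no subtraction, the log2 ratio was -1.99 for CTNND1 but -0.42 for CDH3, within 2-fold.

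Of 17 genes that assemble, cut or control desmosomal proteins, 14 passed the minimum, with a median of -1.05. Of these 14, 7 were lower by 2-fold or more and 0 higher, against 21.9% and 12.4% of all genes that passed. The 7 included the sheddase gene ADAM9 (-2.37), the kinesin gene KIF5B (-2.25) and ESRP1, an epithelial splicing regulator (-2.13). PRKCA, a protein kinase C that acts on desmosome adhesion, had 1.24 FPKM in siHNRNPA1 cells and 4.95 FPKM in sicontrol cells (-1.41). The transcription factor GRHL2 had 3.63 FPKM in siHNRNPA1 cells and 8.25 FPKM in sicontrol cells, just within 2-fold (-0.999). After subtraction of the nearest genes 4 of the 14 were at least 2-fold lower, against 8.41% of all genes. Of the 7, these were ESRP1, SOX2 and ADAM9, while KIF5B (-0.85), PRKCA (-0.38), ADAM10 and ADAM17 were within 2-fold. The other was PRKCD, which had a log2 fold of -0.73 before the subtraction and -1.15 after it.

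**Figure D5:**
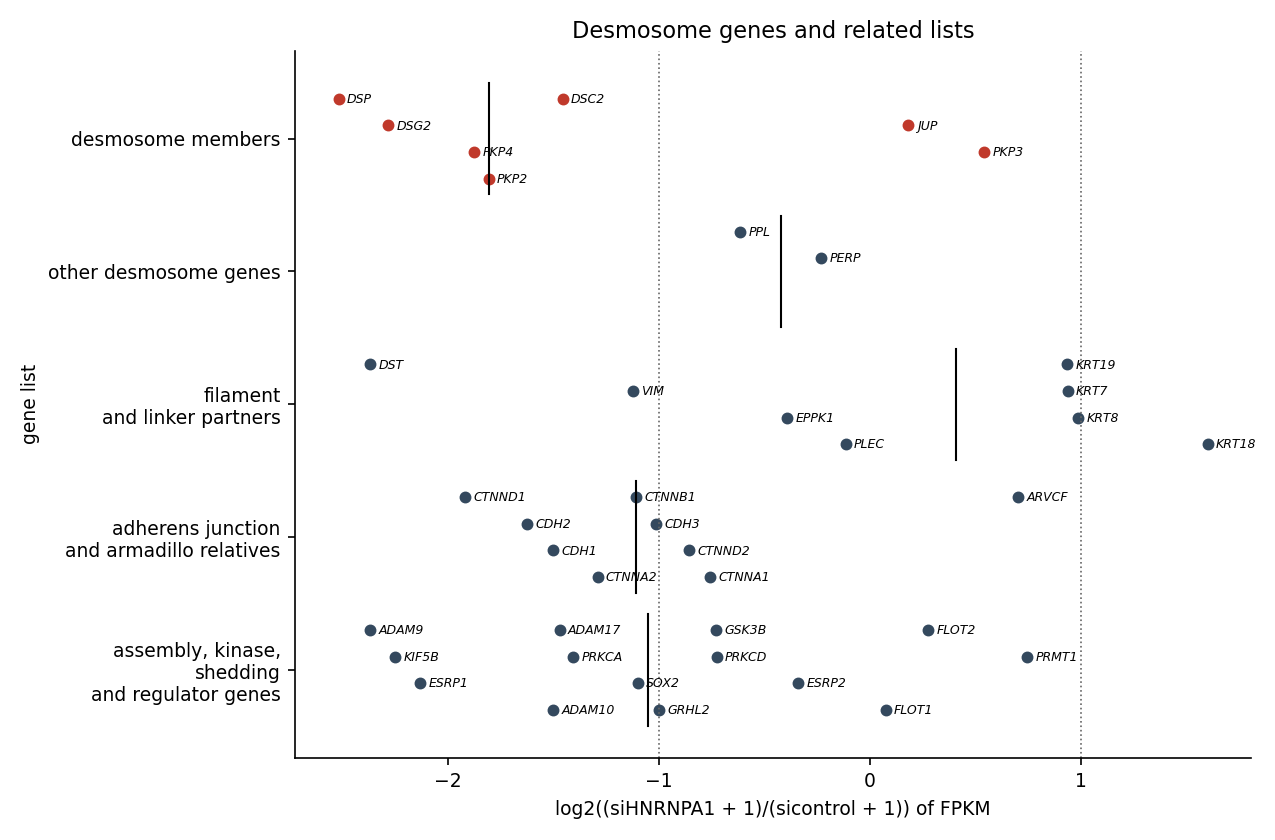
Log2 folds of FPKM for the desmosome genes (red) and 4 lists of related genes (dark) with a mean of at least 1 FPKM, with the list median as a black line and 2-fold as dotted lines. The medians are -1.81 for the desmosome genes, -1.11 for the adherens junction list and 0.41 for the filament and linker list.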

How the data were processed

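Transcript-level RNA-seq values of 1 siHNRNPA1 and 1 sicontrol library of H9 cells were analysed. Per the labels' protocols, libraries were made from messenger RNA and sequenced on an Illumina instrument. Each transcript has a count, and the counts, deposited by the authors as whole numbers, were treated as estimated counts because overlapping transcripts all carry them. The authors also deposited TPM, which adds up to 1000000 in either library, and FPKM, which adds up to 520633 (siHNRNPA1) and 468831 (sicontrol). Which aligner and quantification program made these values is not given in the sources used here. Mouse builds (GRCm38, mm10) are named in the submitters' processing notes, but all 39 transcripts described have the same identifiers and positions in human GENCODE release 29 (GRCh38). A further 6 columns of per-sample values match neither library by their names and were not used. Whether they hold further replicates of these conditions is not known.

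FPKM, TPM and estimated counts were summed per gene identifier with Python 3.11.15, pandas 2.3.3 and scipy 1.17.1. Folds used a pseudocount of 1 FPKM, and genes with a mean of at least 1 FPKM were kept. Intervals are exact (Poisson for counts, Clopper-Pearson for shares and ratios, 95%) and treat each estimated count as an independent read. Those of shares also take each count as assigned to the right transcript. GC content and length were those of each gene's most abundant transcript in the 2 libraries. The functions were tested on simulated data. Transcripts were named at 10% or more of their gene's FPKM in either library, or with a share difference of 20 points in a gene of at least 5 FPKM in both. Genes of the related lists were named past 2-fold or as relatives of a desmosome gene. Others were named after their values were seen. These were CLDN6, PRKCD, KRT7, KRT8, KRT19, PERP, PPL, GRHL2, TNNT2, NKX2-5, ACTN2 and RYR2, and the transcripts PKP2-201, PKP4-205 and PKP4-217. The genes and lists were chosen with earlier results of these data known. Labels name no batch.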

Additional observations from a re-analysis of the deposited data

How the results depend on the processing

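No paired analysis was possible because each condition had 1 library. The number of desmosome genes at least 2-fold lower was 5 as reported and under 6 alternatives. It was 4 with a pseudocount of 5 FPKM and after subtraction of the nearest genes, where DSC2 was within 2-fold, and with a mean of at least 5 FPKM, which leaves DSC2 out. The median log2 fold of -1.81 was -2.10 with TPM, -2.25 with estimated counts scaled to the library total and -2.12 with a pseudocount of 0.1 FPKM. It was -1.12 with a pseudocount of 5 FPKM and -1.03 after the subtraction. Over all genes the median was -0.13 as reported, and in the same order -0.28, -0.11, -0.15, -0.080 and -0.0015. Over all settings the log2 fold ranged from -2.83 to -1.72 for DSP, from -2.53 to -1.11 for DSG2, from -2.25 to -1.03 for PKP2 and from -2.09 to -0.89 for PKP4, the last without PKP4-202, a setting added after the data were seen. DSC2 ranged from -3.07 to -0.38. Depth limits DSC2 and DSC3, whose transcript shares rest on 74 and 19 counts in the siHNRNPA1 library. No alternative reversed a gene that was past 2-fold.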

Other observations

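DSP, DSG2, DSC2, PKP2 and JUP belong to the KEGG pathway of arrhythmogenic right ventricular cardiomyopathy as listed in the deposited table. This pathway was looked at after the data had been seen. Of its 33 other genes with a mean of at least 1 FPKM, 11 were lower by 2-fold or more and 4 higher, with a median log2 fold of -0.10. Over all genes with that mean, 21.9% were lower and 12.4% higher. DAG1, which encodes dystroglycan, had 5.59 FPKM in siHNRNPA1 cells and 48.6 FPKM in sicontrol cells (-2.91), and ITGB1, integrin beta 1, had 19.1 FPKM in siHNRNPA1 cells and 86.9 FPKM in sicontrol cells (-2.13). The nuclear envelope genes LMNA (1.43) and EMD (1.21) were at least 2-fold higher. LMNA had 37.3 FPKM in siHNRNPA1 cells and 13.2 FPKM in sicontrol cells. After subtraction of their nearest genes 4 of the 33 were lower by 2-fold or more and 4 higher, against 8.41% and 8.06% of all genes. DAG1 (-2.84) and LMNA (1.06) were among them, while ITGB1 (-0.96) and EMD (0.33) were within 2-fold.

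The letters TAGGG, a core of sequences that hnRNP A1 is known to bind in RNA, were counted on the sense strand of each gene's most abundant transcript. They occurred in 6 of the 8 desmosome genes and in 63.0% of the 11916 genes with a sequence. DSC2-202 held 8, DSC3-202 3, DSG2-201 2, and JUP-203, PKP2-202 and PKP4-202 1 each. DSP-201 and PKP3-201 held none. Per kilobase, DSC2-202 had 0.649, close to the upper quartile of all genes (0.639). None of the exon and junction sequences printed above held these letters. The shorter TAGG does occur in the PKP4-202 exon and in both DSP junction sequences, and it was not counted. Introns were not part of the count.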
